A study of Mus musculus with 2 samples.

Results

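Bdnf and Fgf1 are genes of growth factors that act between cells, and their DNA methylation was followed here in the dentate gyrus, the hippocampal region that holds the granule neurons. Both libraries of the study came from wild-type males of the strain C57Black6 aged 8 to 10 weeks, with the tissue dissected from both sides of the brain, and the labels name no stimulation, drug or mutation. The members were the cytosines of at most 100 reads listed for replicate 2 in the windows chr2:109510000-109570000 (Bdnf, 60 kb) and chr18:38995000-39090000 (Fgf1, 95 kb) of build mm9. The windows were set by position, with earlier results of these data known. They held 873 and 842 listed cytosines, 1715 of the 27435342 listed for that library. The Bdnf window had 113 CpG, 589 CHG and 171 CHH sites, and the Fgf1 window had 116, 581 and 145, where H is A, C or T and CpH stands for CHG and CHH together. Each was set against 200 kb on either side. The dissected tissue holds several cell types, so a level is an average over them, and bisulfite reads count methylcytosine and hydroxymethylcytosine alike.

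BDNF is a neurotrophin that signals through the receptor TrkB and supports the survival of neurons and the plasticity of synapses. Its gene has several alternative first exons, each with a promoter of its own, which are spliced to a shared coding exon, and several of these promoters respond to neuronal activity. FGF1 is the acidic fibroblast growth factor, which binds the fibroblast growth factor receptors, and its gene also has alternative promoters. In the mouse dentate gyrus, regulatory regions of both genes are known as targets of the activity-induced demethylation that needs Gadd45b. In the mammalian genome most CpG sites are methylated except in CpG-rich promoters, whereas CpH methylation is low and is found mainly in neurons, where Dnmt3a deposits it.

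RefSeq lists 7 promoters for Bdnf, numbered 1 to 7 here from the first transcript start to the last. These numbers give the order of the starts only and were not matched to published promoter names. All 7 promoters are on the plus strand, which is the strand whose cytosines were listed. The promoters were placed by the pattern of the listed cytosines. Promoters 4 and 6 each matched in 1 place of the window, with 16 and 10 listed sites, every one a cytosine of the listed context. They lie 16356 bases apart in the tables and in RefSeq (GRCm38.p6). With all 7 held at their RefSeq spacing, 33 of 33 listed sites matched at 1 place only, and promoter 3, which holds the next largest number of listed sites (5), was placed in this way. Promoters 1 and 5 held no listed site and promoters 2 and 7 held 1 each, so their places rest on that spacing. Shown are the 250 bases before the transcript start of the 3 promoters in which CpG levels could be read, with the listed cytosines in capitals.
Promoter 3 (chr2:109532342-109532591): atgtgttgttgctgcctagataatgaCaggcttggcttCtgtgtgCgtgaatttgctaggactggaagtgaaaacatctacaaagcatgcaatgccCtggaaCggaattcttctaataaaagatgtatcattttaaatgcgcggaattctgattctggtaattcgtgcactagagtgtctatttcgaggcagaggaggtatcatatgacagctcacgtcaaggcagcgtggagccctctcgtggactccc
Promoter 4 (chr2:109532933-109533182): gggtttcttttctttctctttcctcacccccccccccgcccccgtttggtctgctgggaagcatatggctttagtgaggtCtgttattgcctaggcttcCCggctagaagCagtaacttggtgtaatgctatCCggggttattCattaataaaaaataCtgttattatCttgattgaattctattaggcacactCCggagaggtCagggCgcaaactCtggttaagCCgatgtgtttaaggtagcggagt
Promoter 6 (chr2:109549289-109549538): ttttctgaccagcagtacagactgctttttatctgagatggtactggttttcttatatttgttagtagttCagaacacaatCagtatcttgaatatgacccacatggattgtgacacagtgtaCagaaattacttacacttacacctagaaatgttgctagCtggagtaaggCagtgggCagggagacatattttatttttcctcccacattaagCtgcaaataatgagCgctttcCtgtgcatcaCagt

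Promoters 3 and 4 had 9 and 8 CpG dinucleotides in these bases, while promoter 6 had 1. In promoter 4 none of 125 reads at the 5 listed CpG sites was methylated. In promoter 3 the 2 listed CpG sites had 2 methylated reads of 21 each, or 9.52% (exact Clopper-Pearson 95% interval 1.17% to 30.4%). The only CpG of promoter 6, 21 bases before the start, was methylated in 9 of 24 reads, or 37.5% (18.8% to 59.4%). The capitals of promoters 3, 4 and 6 were thus at 10% or less except for that site: CHG reads were methylated in 2 of 60, 1 of 228 and 0 of 201, and the 2 CHH sites of promoter 4 in 0 of 61. The letters CGTCA, the core of the cAMP response element to which CREB binds, were found on either strand in 1 of the 7 promoters, promoter 3, from 35 bases before the start, and in 17.8% of 32851 RefSeq promoters over the same length. The CpG inside that match was not among the listed sites. The letters CACGTG, a single form of the E-box, were in none of the 7 and in 6.02% of all promoters. Other forms of the E-box were not searched. The Sp1 letters GGGCGG were in promoters 2 and 4 and in 32.7% of all promoters.

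**Figure D1:**
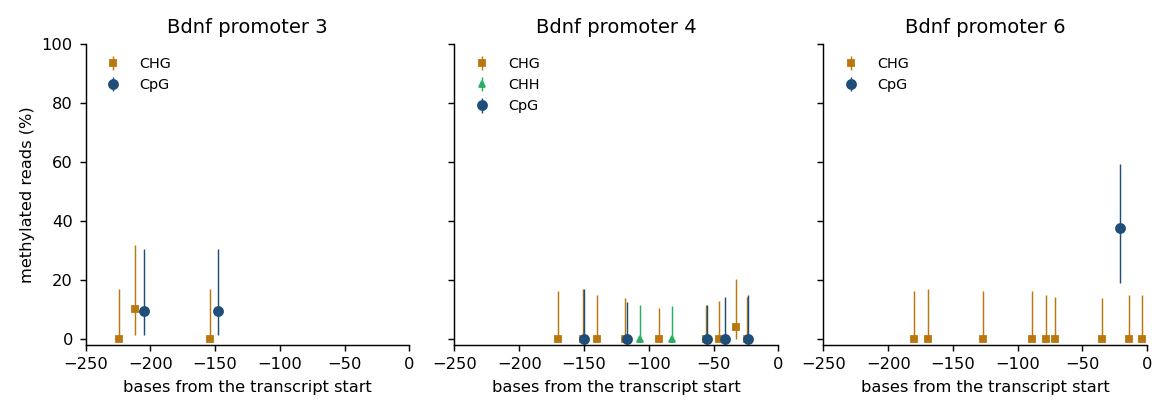
Methylated reads (%) at each listed cytosine of Bdnf promoters 3, 4 and 6, by bases from the transcript start, with exact 95% intervals. CpG, CHG and CHH sites are marked apart. The CpG 21 bases before the start of promoter 6, at 37.5%, is the highest point.

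Depth was similar in both windows. Sites had a median of 22 to 23 reads for CpG and CHG and 31 for CHH, no site of either window had more than 47 reads, and none was left out by the limit of 100. The tables of replicate 2 start at 20 reads for CpG and CHG and at 30 for CHH. Replicate 1 listed 1 site in the Bdnf window, a CHG cytosine at position 109523522 with 0 of 20 reads methylated in replicate 1 and 0 of 20 in replicate 2, and 0 sites in the Fgf1 window. The comparisons below therefore rest on 1 library and have no replicate check. Levels are methylated reads over all reads of a stretch. Tests are two-sided Fisher's exact tests of reads, adjusted by Benjamini-Hochberg over 9 comparisons. Intervals and p-values cover counting error only, since amplified reads that carry no molecular identifier may repeat 1 molecule, neighbouring cytosines may share a read, and sites within a stretch differ in level.

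The first question was how CpG methylation at each gene compares with the DNA around it. The Bdnf window was far less methylated than its flanks, and the Fgf1 window somewhat more. At Bdnf 1003 of 2648 CpG reads were methylated, 37.9% (36.0% to 39.8%), against 80.2% in the flanks. The difference from both flanks was -42.4 percentage points (95% interval -44.3 to -40.3, Fisher's exact test, adjusted p at most 9e-300). It was -26.3 points at the 11 window sites of at least 30 reads, where the window was at 57.1% and the flanks at 83.3%. At Fgf1 2283 of 2700 reads were methylated, 84.6% (83.1% to 85.9%), against 78.4% and 75.5% in the left and right flanks. The difference from both flanks was 7.76 points (6.17 to 9.27, adjusted exact p = 2.57e-19). At the 7 window sites of at least 30 reads it was 7.29 points and did not pass (adjusted exact p = 0.0507), and with sites counted as called or not called in place of reads it was 2.20 points and did not pass (adjusted exact p = 0.422). Between the genes, Bdnf minus Fgf1 was -46.7 points (adjusted exact p = 3.21e-282). Among 38889 autosomal tiles of 60 kb with at least 30 CpG sites the median level was 80.5%, and 48 tiles (0.123%) were below the Bdnf window. Among 24930 tiles of 95 kb, 85.6% were below the Fgf1 window.

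Site by site, low CpG levels were common at Bdnf and rare at Fgf1. At Bdnf 58 of 113 CpG sites (51.3%) were at 20% or less, 29 lay between 20% and 80%, and 26 were at 80% or more. In its flanks 16 of 457 sites were at 20% or less, and over all nuclear CpG sites of the library the share was 5.4%. At Fgf1 2 of 116 sites (1.72%) were at 20% or less, against 45 of 522 (8.62%) in its flanks, and 90 were at 80% or more. The median site stood at 18.2% at Bdnf and 88.5% in its flanks, and at 90.7% at Fgf1 and 88.2% in its flanks. No methylated read was seen at 40 Bdnf sites and at 0 Fgf1 sites. A one-sided binomial test against the mitochondrial CpH level, which stands for failed conversion, with adjustment at 0.01 over all nuclear sites of the context, called 68 of 113 CpG sites methylated at Bdnf (60.2%) and 115 of 116 at Fgf1 (99.1%), with 97.5% called over the whole library.

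**Figure D2:**
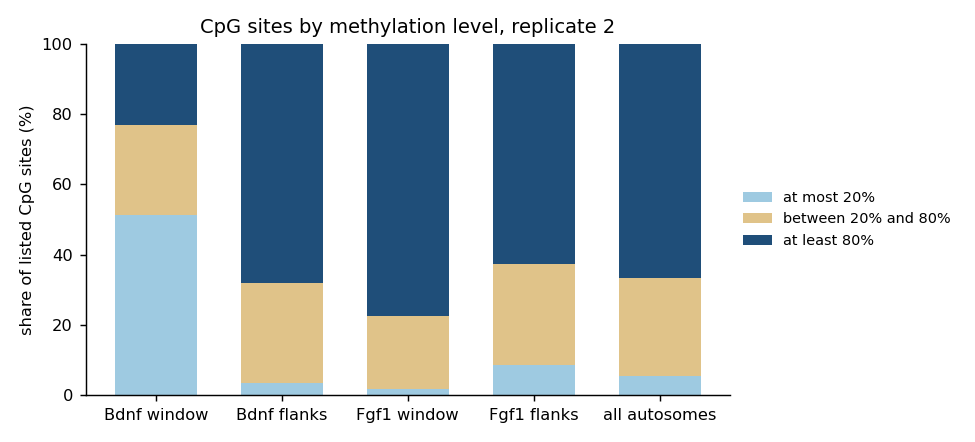
Share (%) of listed CpG sites at most 20%, between 20% and 80% and at least 80% methylated, in each window, its flanks and all autosomes of replicate 2. The lowest class holds 51.3% of the Bdnf window sites and 1.72% of the Fgf1 window sites.

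Of the 58 low CpG sites of Bdnf, 48 lay in 2 blocks. The rule for named stretches, at least 3 successive listed CpG sites of 20% or less spaced by at most 500 bases, found 6 at Bdnf, with 44 CpG sites, and 0 at Fgf1. With spacing up to 2 kb, chosen after the values were seen, these joined with neighbouring low sites into 2 wider stretches. A further one formed from low sites outside the 6. The 3 wider stretches held 51 CpG sites, with 22 of 1167 reads methylated (1.89%, 1.19% to 2.84%). The sites were chosen for being low, so these levels are a description. The first stretch ran over chr2:109513797-109519004, 3.797 to 9.004 kb into the window, with 26 CpG sites at 2.15% and 19 of them without a methylated read. The second ran over chr2:109531841-109535751, 21.8 to 25.8 kb in, with 22 sites at 1.22% and 18 without a methylated read. The last, chr2:109536932-109537786, had 3 sites at 4.35%. Wider stretches of this kind were fewer and shorter around the gene: 0 in the left flank and 1 of 214 bases in the right.

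The transcript starts of promoters 1 and 2 fell 4.86 and 7.19 kb into the window, inside the first stretch, and those of promoters 3, 4 and 5 fell at 22.6, 23.2 and 24.6 kb, inside the second. Promoters 6 and 7, at 39.5 and 53.1 kb, lay outside all 3 stretches. With the spacing of at most 500 bases, only the starts of promoters 4 and 5 fell inside a stretch. Starts 1 and 2 lay in gaps without a listed CpG, from 3.816 to 5.195 kb and from 6.625 to 8.066 kb, and start 3 lay just past a stretch that ends at 22.444 kb.

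Of the named stretches, the longest by sites was chr2:109515195-109516625, 1431 bases with 19 CpG sites, of which 14 had no methylated read and the highest was at 18.2%. It lies between the starts of promoters 1 and 2. Its 437 CpG reads held 10 methylated ones (2.29%). Next came chr2:109534111-109534721 with 7 sites and 0 of 150 reads methylated, and chr2:109533033-109533424 with 6 sites and 0 of 145. A count of 0 of 150 has an exact upper bound of 2.43%. The stretch chr2:109531841-109532444, which holds both listed CpG sites of promoter 3, had 5 of 117 reads methylated (4.27%). The stretch chr2:109535258-109535751 had 4 sites and 1 of 81 reads methylated.

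**Figure D3:**
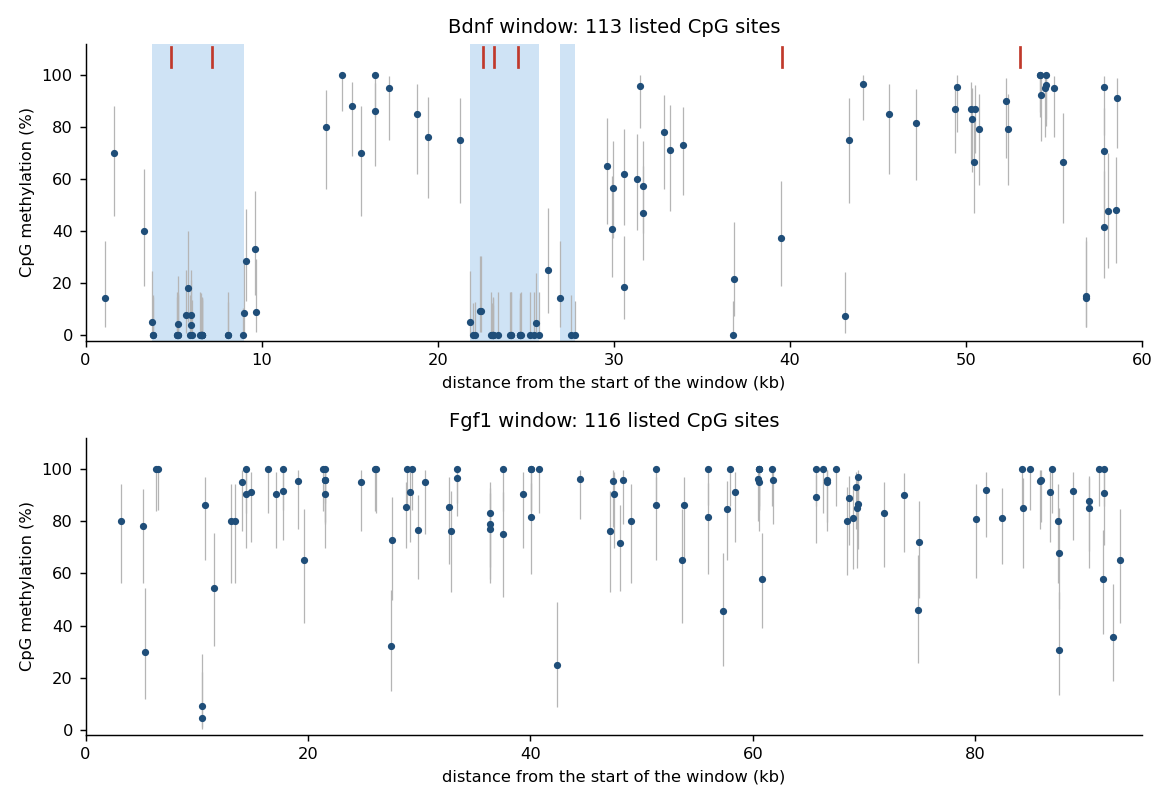
CpG methylation (%) of each listed site with its exact 95% interval, by distance (kb) from the start of the Bdnf window (top) and the Fgf1 window (bottom). Shaded bands are the 3 wider unmethylated stretches and red ticks the 7 Bdnf transcript starts, of which 5 fall in the bands, and 2 (promoters 4 and 5) in a stretch of at most 500 bases between sites. No band was found at Fgf1, where no promoter was placed.

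Outside the wider stretches, the 62 CpG sites of the Bdnf window were at 66.2% (63.8% to 68.6%). Methylated runs, at least 3 successive listed sites at 50% or more, were defined after the values were seen. Between the first stretch and the second, 10 successive sites from 13.7 to 21.2 kb ranged from 70.0% to 100%, with 184 of 214 reads methylated (86.0%). The longest methylated run, 21 sites from 43.4 to 55.5 kb, was at 87.5%. The start of promoter 7 fell within its span, in a gap without a listed CpG from 52.388 to 54.202 kb. No CpG of promoter 7 was listed, so its CpG level was not measured. Between these runs levels were mixed. From 29.6 to 31.7 kb 9 sites stood at 65.2%, 40.7%, 56.7%, 62.1%, 18.5%, 60%, 96%, 46.9% and 57.6%, in the order of their positions, so neighbours differed widely. The last of these began a run of 4 sites up to 33.9 kb with 74 of 107 reads methylated (69.2%), of which the other 3 stood at 78.3%, 71.4% and 73.3%. Single low sites lay farther on, at 36.8 kb (0 of 26 reads), at 43.1 kb (2 of 27) and as a pair at 56.8 kb (3 of 20 and 3 of 21). In all, 18 of the 62 sites were under 50%.

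At Fgf1 the CpG methylation was high over most of the window. No promoter of Fgf1 was placed, so whether any listed CpG site lies in its promoters is not known. Of 116 sites 9 were under 50% and 31 were at 100%. The lowest were an adjacent pair at positions 39005500 and 39005502, 10.5 kb into the window, with 2 of 22 and 1 of 23 reads methylated, 9.09% (1.12% to 29.2%) and 4.35% (0.11% to 21.9%). The next listed site, 39005764, belonged to a run of 22 sites over 15.4 kb at 91.0%. The other 7 sites under 50%, between 25% and 45.8%, were isolated at 5.36, 27.5, 42.4, 57.4, 74.9, 87.5 and 92.4 kb. The longest run by sites, from 57.7 to 73.6 kb, had 26 sites at 91.3%. In RefSeq the gene Arhgap26 spans the whole of Fgf1 and Gm5820 overlaps it, so these cytosines cannot be assigned to Fgf1 alone, while no RefSeq gene overlaps Bdnf, whose coding neighbours are Kif18a and Lin7c. By the wider spacing, low stretches were found in the flanks of Fgf1, 1 in the left and 4 in the right, the longest of 199 bases.

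CpH methylation was compared next. The mitochondrial CpH level, taken as the level of failed conversion, was 0.368% (0.365% to 0.370%). CHG reads were methylated in 80 of 13948 at Bdnf, 0.574% (0.455% to 0.713%), against 0.875% in the left flank and 0.682% in the right. The difference from both flanks was -0.203 points (-0.332 to -0.051, adjusted exact p = 0.0133). The call rested on the left flank: against the right flank alone it was -0.108 points and did not pass (adjusted exact p = 0.181), nor did it with flanks of 50 kb (-0.136 points, adjusted exact p = 0.162). At Fgf1 154 of 13493 CHG reads were methylated, 1.14% (0.969% to 1.34%), against 0.937% in the left flank and 0.810% in the right. Here the difference was 0.276 points (0.096 to 0.480, adjusted exact p = 0.00454). It was 0.205 points against the left flank alone, which did not pass (adjusted exact p = 0.0626), and 0.0024 points at the 41 window sites of at least 30 reads (adjusted exact p = 1). Between the genes, Bdnf minus Fgf1 was -0.568 points (-0.792 to -0.351, adjusted exact p = 7.62e-07), and -0.384 points with at least 30 reads, which did not pass (adjusted exact p = 0.348). Methylated CHG reads were unevenly spread over sites: 12 of 581 sites at Fgf1 had 4 or more, against 2 of 589 at Bdnf. Whether the difference between the genes holds without such sites was not tested.

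For CHH the differences from the flanks did not pass the test at either gene. At Bdnf 46 of 5492 CHH reads were methylated, 0.838% (0.614% to 1.12%), against 0.717% and 0.598% in the left and right flanks, a difference of 0.184 points (-0.040 to 0.471, adjusted exact p = 0.130). At Fgf1 66 of 4748 were, 1.39% (1.08% to 1.77%), against 1.15% and 1.13%, a difference of 0.254 points (-0.084 to 0.655, adjusted exact p = 0.154). Bdnf minus Fgf1 was -0.552 points (-0.981 to -0.147, adjusted exact p = 0.0114). The flanks differed in the same direction, with CHH levels of 0.653% around Bdnf and 1.14% around Fgf1. The difference between the windows is thus not particular to the genes, and that between the flanks was not tested. Over the autosomes the levels were 0.784% for CHG and 0.889% for CHH. Of autosomal tiles of the window's length, 23.4% were below the Bdnf window for CHG and 52.4% for CHH, and 91.2% and 87.6% were below the Fgf1 window.

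**Figure D4:**
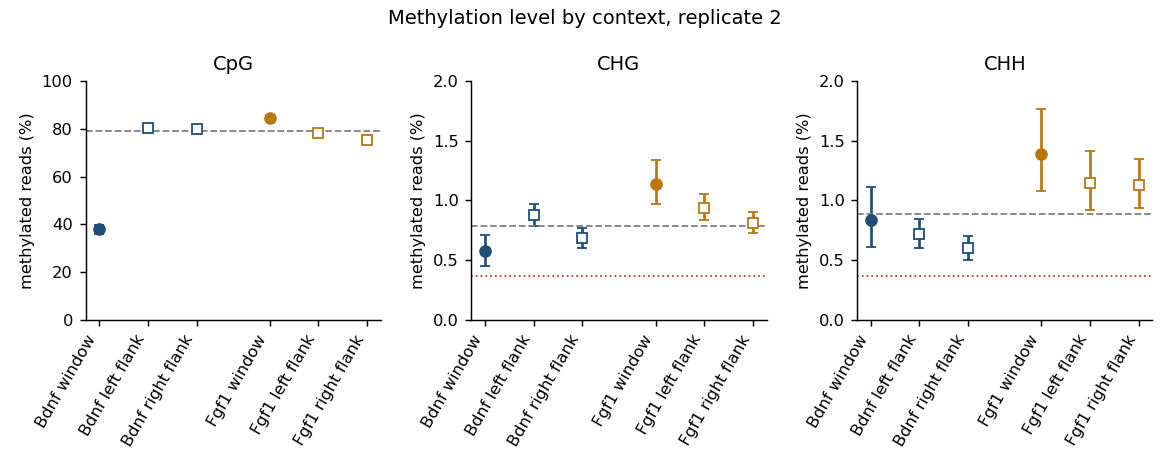
Methylated reads (%) with exact 95% intervals in each window (filled) and its left and right flanks (open), for CpG, CHG and CHH. The dashed line is the autosomal level and the dotted line the mitochondrial CpH level. The Bdnf window lies at 37.9% for CpG and 0.574% for CHG, and the Fgf1 window at 84.6% and 1.14%.

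Inside the window, CHG levels of Bdnf were lower in the wider stretches of unmethylated CpG sites. In the 3 wider stretches 4 of 2243 CHG reads were methylated, 0.178% (0.049% to 0.456%), against 76 of 11705, 0.649% (0.512% to 0.812%), in the rest of the window. The difference was -0.471 points (-0.667 to -0.163, two-sided Fisher's exact test, p = 0.00712 adjusted over CHG and CHH, a comparison added after the values were seen). The level inside included the mitochondrial level in its interval. For CHH, 4 of 476 reads inside and 42 of 5016 outside were methylated, 0.840% and 0.837% (difference 0.003 points, -0.588 to 1.32, adjusted exact p = 1), with 15 sites inside. Without the 3 wider stretches the CHG level of the window minus the flanks was -0.127 points (adjusted exact p = 0.154). The wider spacing was itself chosen after the values were seen. In the 6 named stretches, in order of position, 1 of 43, 0 of 485, 2 of 478, 1 of 187, 0 of 278 and 0 of 60 CHG reads were methylated. Whether the named stretches alone differ from the rest of the window was not tested.

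In bins of 5 kb with at least 20 CHG sites, the 12 bins of the Bdnf window ranged from 0.175% to 1.25%. The lowest, 5 to 10 kb in, had 47 CHG sites and 26 CpG sites at 4.89%, within the first stretch for most of its length, and the highest was its neighbour, 10 to 15 kb in, with 49 CHG sites and a CpG level of 91.1% from 2 sites. Bins from 0.241% to 0.432% covered the last 2 stretches at 20 to 30 kb, though a bin at 40 to 45 kb with a CpG level of 59.7% was lower still, 0.204%. At Fgf1 15 bins ranged from 0.281%, 20 to 25 kb in, to 2.22%, 60 to 65 kb in, with CpG levels of 96.4% and 91.8%. The 75 flank bins of Bdnf had a median of 0.709% and the 73 of Fgf1 a median of 0.731%, against 0.530% and 1.09% in the windows.

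**Figure D5:**
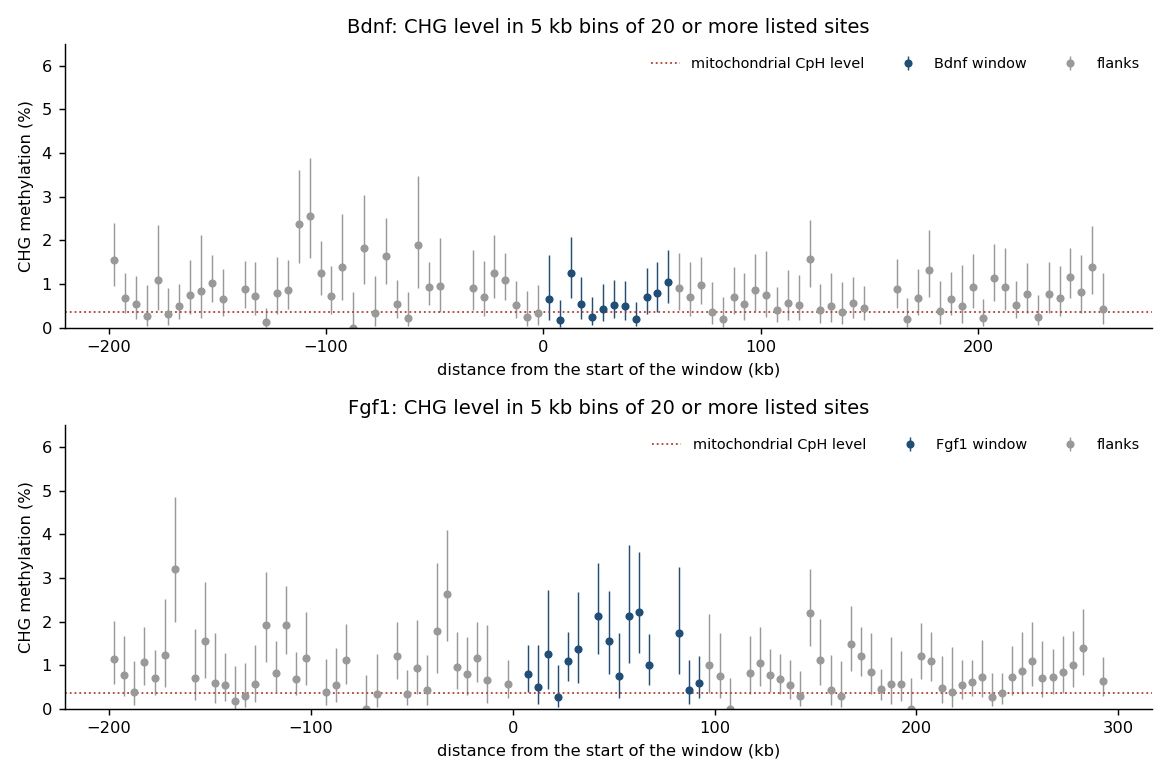
CHG methylation (%) in 5 kb bins of at least 20 listed sites with exact 95% intervals, by distance (kb) from the window start, for Bdnf (top) and Fgf1 (bottom). Window bins are blue, flank bins grey, and the dotted line is the mitochondrial CpH level. The window bins reach 1.25% at Bdnf and 2.22% at Fgf1, and flank bins 2.56% and 3.2%.

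Single CpH cytosines were mostly without methylated reads: 538 of 589 CHG and 149 of 171 CHH sites at Bdnf, and 504 of 581 and 115 of 145 at Fgf1. The binomial test called 4 CHG sites at Bdnf (0.679%) and 15 at Fgf1 (2.58%), where 1.46% were called over all nuclear CHG sites. It called 6 CHH sites at Bdnf (3.51%) and 8 at Fgf1 (5.52%), with 2.75% over all. The exact intervals of the shares, 0.185% to 1.73% and 1.30% to 7.48% at Bdnf and 1.45% to 4.22% and 2.41% to 10.6% at Fgf1, each include the share of the library, that of CHG at Fgf1 only just. No CpH site with under 3 methylated reads was called, so a low level at a single site was not detectable at this depth.

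Of the 760 listed CpH sites of Bdnf, 96 CHG and 15 CHH sites lay in the 3 wider stretches, and none of the 10 called sites did, a count too small to set the stretches apart. The CHG site of lowest p, position 109566100, was methylated in 6 of 29 reads, 20.7% (8.00% to 39.7%, adjusted exact binomial p = 3.96e-07). The other 3 were 109557126 (4 of 25), 109522981 (3 of 21) and 109546648 (3 of 23), and the nearest listed CpG to 109546648, 137 bases away, was methylated in 0 of 26 reads. Some called CHH sites lay near each other, but clustering was not tested. The listed CHH sites were themselves uneven, with 24 from 15 to 20 kb against 4 from 10 to 15 kb and 4 from 20 to 25 kb. Positions 109527374, 109527352 and 109526404, at 16.4 to 17.4 kb, had 5 of 30, 4 of 35 and 3 of 31 methylated reads, and 109564266 and 109564268, at 54.3 kb, had 4 and 3 of 31. The remaining site was 109555331, with 3 of 32. All 6 lie in the methylated CpG runs, but the share of all listed CHH sites in these runs was not counted, so no excess can be read from this. Sites a few bases apart may have been read from the same molecules.

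At Fgf1 the called sites were spread from 1.98 to 82.4 kb. The highest CHG level was 33.3% at Fgf1 and 20.7% at Bdnf, while the highest CHH levels were close, 16.1% at Fgf1 and 16.7% at Bdnf. The CHG site 39052279 had 7 of 21 reads methylated, 33.3% (14.6% to 57.0%, adjusted exact binomial p = 9.28e-10), and lay 83 bases from a CpG of 45.5%. It was followed by 39022572 with 6 of 21, 39039757 with 6 of 23, 39057820 with 6 of 27 and 39039380 with 6 of 34. Among CHH sites, 39055764 and 39055763 had 6 and 5 of 47, 39064530 had 5 of 31, 39039340 had 4 of 31 and 39064509 had 4 of 34. The nearest listed CpG of these 10 sites stood between 45.5% and 97.0%.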

How the data were processed

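Bisulfite sequencing of genomic DNA from dentate gyrus was deposited for 2 libraries of 1 group, called biological replicates in the series' design text. Replicates were numbered from the labels. Per the submitters' processing notes the authors used Bismark 0.7.5 and build mm9, and how reads were trimmed or deduplicated is not stated there. The deposited tables, 1 per library and context, give for each cytosine of 1 strand class (OT in their names) the count of methylated reads, that of unmethylated reads and their total, with the percent methylated as the authors deposited it. In every row the counts added up to the total and gave the percent. Replicate 2 listed 2881459 CpG, 18322704 CHG and 6231179 CHH sites and replicate 1 listed 7959, 39325 and 124736.

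The members and lists were chosen with earlier results of these data known. Levels, exact Clopper-Pearson intervals (95%), Newcombe intervals of differences, two-sided Fisher's exact tests and one-sided binomial site tests were computed with scipy 1.17.1, numpy 2.4.6 and pandas 2.3.3, and figures drawn with matplotlib 3.10.9. Site tests were adjusted over all nuclear sites of the context in replicate 2. P-values were written no lower than 1e-300. Both tests were checked on simulated reads drawn independently, for Fisher's test at an even level within each stretch. The checks therefore do not cover repeated molecules or sites of unequal level within a stretch. The named sites were low CpG stretches, CpG sites under 50%, the 5 called CpH sites of lowest p per context, and the extreme 5 kb bins. No annotation of mm9 was used. RefSeq (GRCm38.p6) gave the promoter sequences, their order and gene neighbours, and none of its coordinates are printed. The other neurotrophin, fibroblast growth factor and demethylation genes of the list were not placed and are not analysed here. The rule for placing promoters asked for at least 8 matched sites and 1 place, and only promoters 4 and 6 met it.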

Additional observations from a re-analysis of the deposited data

How the results depend on the processing

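The setting without the unmethylated stretches was added after the values were seen. Of 39 differences tested on other sites, flanks or counts than the main value, 21 kept direction and side of the threshold. Means over site levels, which have no test, kept every direction. No site of the windows or flanks had over 100 reads and the CHH table starts at 30, so lifting that limit, or asking for 30 reads in CHH, could not change a difference. For CHG at Bdnf the difference from the flanks, in percentage points, did not pass with at least 30 reads (-0.242), flanks of 50 kb (-0.136), the right flank alone (-0.108), called sites in place of reads (-0.532), the stretches left out (-0.127) or replicate 1 (-3.28, from 1 window site). For CHG at Fgf1 it did not pass with at least 30 reads (0.0024), the left flank alone (0.205) or called sites (0.997), and for CpG at Fgf1 with at least 30 reads (7.29, 7 window sites) or called sites (2.20). Bdnf minus Fgf1 did not pass for CHG with at least 30 reads (-0.384) or for CHH with at least 40 (-3.16). Reversed were CHH at Fgf1 with flanks of 50 kb (-0.0023) and, with at least 40 reads, where windows held at most 9 sites per context, CHG at Bdnf (1.95), CHH at Bdnf (-0.046), CHG at Fgf1 (-1.70) and CHG between the genes (2.27). Called CpH sites numbered 6 at Bdnf and 10 at Fgf1 with at least 30 reads, 0 and 3 with at least 40, and 2 and 13 with a background rate of 1%, which by construction needs more methylated reads. The cause of the other changes was not tested. No CpG site of the windows had 40 reads, and replicate 1 gave no other value for lack of sites in the windows. No paired analysis was possible because each comparison used 1 library of the single group. At 20 to 47 reads a site, levels of a few percent at single cytosines were not detectable.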
